A study of Homo sapiens with 4 samples.

Results

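p53 is a transcription factor that is held at a low level by the ubiquitin ligase MDM2 and is stabilised when DNA is damaged or the cell is stressed. It then binds paired half-sites in the DNA near its target genes. The products of these genes halt the cell cycle, repair DNA, alter metabolism, start apoptosis, or, as MDM2 itself does, shut p53 down again. HCT116, an established human colorectal cancer line, is known to carry wild-type p53 and is widely used to study its targets.

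A list of 33 well-known p53 target genes was followed here in HCT116 control cells and in HCT116 cells labelled as knockout for C14orf159. That gene, named DGLUCY today, encodes a protein of the mitochondrial matrix. The list was drawn up by gene symbol, and all 33 symbols were among the 26255 gene symbols deposited for each library. The groups were 2 libraries of C14orf159 knockout cells (KO replicates 1 and 2) and 2 libraries of HCT116 controls that, according to the labels, had received an empty vector (EV control replicates 1 and 2). The file headers call the knockout columns sgDGLUCY and the control columns AAVS1, the name of a locus commonly cut as a harmless control, and which of the labels' and headers' names fits the controls was not settled. The labels do not say whether the KO cells were a clone or a pool, nor whether replicates were separate cultures, so the p-values reflect variation among 4 libraries that may be partly or wholly technical. The libraries were made with an mRNA kit, and levels are given as FPKM, which counts fragments for each kilobase of transcript in every M (mega) fragments mapped.

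The libraries held a roughly estimated 12.5 and 12.9 M fragments in KO and 12.99 and 13.4 M in EV control, so that 1 FPKM stood for about 12 to 13 fragments per kilobase of transcript. A preset window bounds these estimates, so the differences between libraries are not read. C14orf159 itself stood at 2.52 and 10.8 FPKM in the KO libraries, against 16.2 and 16.4 FPKM in the EV control libraries (difference -1.42, SE 0.57; limma-trend, adjusted p = 0.314). Both KO libraries were lower, KO replicate 1 by far the more. The KO libraries also differed more from each other than the EV controls did. For 2100 genes at 30 to 100 FPKM, log2 ratios had a robust SD of 0.21 between KO libraries and 0.079 between EV control libraries. Epithelial identity held in each library, with 6 of 9 epithelial markers at 1 FPKM or more in all 4, among them EPCAM, KRT8 and CDH1, while the intestinal markers CDH17, VIL1 and CEACAM5 were near 0. The summed level of the 9 was 3380 to 3757 FPKM in KO and 3409 to 3581 FPKM in EV control. Of 10 markers of blood, endothelial and stromal cells, 9 were below 1 FPKM in all 4 libraries. Their summed level was 5.62 to 6.91 FPKM in KO and 4.73 to 5.39 FPKM in EV control, nearly all of it from the smooth muscle actin gene ACTA2. In bulk RNA, fewer cells of a state and less RNA per cell cannot be told apart.

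Sequence near the start sites was read first, since these genes share a regulator that binds DNA. RefSeq windows (build GRCh38.p14) from 250 bases before to 50 bases after an annotated start were read for 26 of the 33 genes, as 39 windows, leaving GADD45A, PHLDA3, RRM2B, TNFRSF10A, TNFRSF10B, TP53INP1 and TRIM22. They were searched for the p53 half-site consensus, a palindrome of 10 bases that reads alike on both strands, and for a pair of half-sites at most 13 bases apart with at most 2 departures in all and the central C and G of each kept. A pair was found in 6 of 39 windows, from 5 genes (MDM2, FAS, AEN, DDB2 and FDXR), against 2.93% of all 35116 windows. An exact single half-site was found in 6 windows, from 6 genes, against 6.63% of all windows. Such a match is a description of these letters and not a measured binding site. Windows of 6 genes are printed as examples, with capitals marking the matched half-sites. Those of 5 genes were picked because they held a match. The BAX window held none, and the windows of TP53I3, CES2 and CDKN1A, not printed, held none either. The printed windows do not stand for the list, since most of the 39 windows held no match.
BAX (chr19:48954625-48954924, plus strand): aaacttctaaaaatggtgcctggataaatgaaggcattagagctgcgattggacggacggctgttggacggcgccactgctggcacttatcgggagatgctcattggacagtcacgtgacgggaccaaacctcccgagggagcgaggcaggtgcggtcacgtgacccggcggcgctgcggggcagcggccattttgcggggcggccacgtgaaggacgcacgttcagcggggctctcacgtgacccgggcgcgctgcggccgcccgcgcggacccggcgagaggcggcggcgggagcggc
PLK2 (chr5:58460037-58460336, minus strand): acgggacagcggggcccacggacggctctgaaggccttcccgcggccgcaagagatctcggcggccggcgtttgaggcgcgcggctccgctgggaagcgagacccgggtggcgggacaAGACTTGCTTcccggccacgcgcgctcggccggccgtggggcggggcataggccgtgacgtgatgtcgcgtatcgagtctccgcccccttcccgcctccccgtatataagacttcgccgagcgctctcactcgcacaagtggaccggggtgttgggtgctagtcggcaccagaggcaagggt
FDXR (chr17:74872945-74873244, minus strand): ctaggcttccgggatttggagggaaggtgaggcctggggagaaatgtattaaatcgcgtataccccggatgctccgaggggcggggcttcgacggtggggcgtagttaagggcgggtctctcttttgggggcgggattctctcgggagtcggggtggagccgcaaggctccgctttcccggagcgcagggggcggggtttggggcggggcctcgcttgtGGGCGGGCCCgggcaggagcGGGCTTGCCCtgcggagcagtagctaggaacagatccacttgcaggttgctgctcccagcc
MDM2 (chr12:68808767-68809066, plus strand): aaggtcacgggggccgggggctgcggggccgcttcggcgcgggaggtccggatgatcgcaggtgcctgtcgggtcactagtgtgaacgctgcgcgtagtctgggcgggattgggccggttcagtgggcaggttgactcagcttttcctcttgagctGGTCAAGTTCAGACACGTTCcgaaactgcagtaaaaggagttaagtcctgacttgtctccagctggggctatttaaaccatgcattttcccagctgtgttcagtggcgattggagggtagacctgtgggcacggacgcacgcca
AEN (chr15:88621090-88621389, plus strand): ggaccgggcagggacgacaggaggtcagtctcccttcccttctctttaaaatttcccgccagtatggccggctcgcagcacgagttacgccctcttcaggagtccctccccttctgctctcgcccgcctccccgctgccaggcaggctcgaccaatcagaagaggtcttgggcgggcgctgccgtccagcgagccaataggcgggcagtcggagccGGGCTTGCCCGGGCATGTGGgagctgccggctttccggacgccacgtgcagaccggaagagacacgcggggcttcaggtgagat
DDB2 (chr11:47214724-47215023, plus strand): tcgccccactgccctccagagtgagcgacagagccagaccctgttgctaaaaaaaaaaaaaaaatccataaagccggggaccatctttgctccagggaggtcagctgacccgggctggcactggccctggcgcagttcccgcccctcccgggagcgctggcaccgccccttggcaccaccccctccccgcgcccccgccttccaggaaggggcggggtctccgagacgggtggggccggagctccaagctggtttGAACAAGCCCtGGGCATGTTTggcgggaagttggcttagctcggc

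The DDB2 window held the 1 pair among these genes with no departure from the consensus, starting 6 bases into the transcribed part with 1 base between the half-sites. A pair with no departure occurred in 0.0285% of all windows. In the MDM2 window, at the internal promoter, and in the AEN window the half-sites lay side by side and began 94 and 34 bases before the start. In the FDXR window they were 10 bases apart. PLK2 held 1 exact half-site, 132 bases before the start, and BAX held no match in this window.

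Expression was compared next. Of the 33 genes, 31 reached the minimum of 1 FPKM in at least 2 libraries, and all 31 did so in all 4 libraries. TRIM22, an interferon-inducible antiviral gene, stood at 0.405 and 0.221 FPKM in KO and at 0.501 and 0.651 FPKM in EV control, below that minimum in all 4 libraries. SPATA18, a gene tied to mitochondrial quality control, was listed at 0.0531 and 0 FPKM in KO and at 0.0167 and 0.0325 FPKM in EV control. The lowest tested value was 2.94 FPKM, for POLH in KO replicate 2, roughly 37.8 fragments per kilobase, and ZMAT3 was next at 3.26 to 4.11 FPKM. GDF15 (169 to 231 FPKM) and CDKN1A (92.8 to 172 FPKM) had the highest mean levels of the list. Levels of FPKM are per length and can be set side by side between genes.

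**Figure D1:**
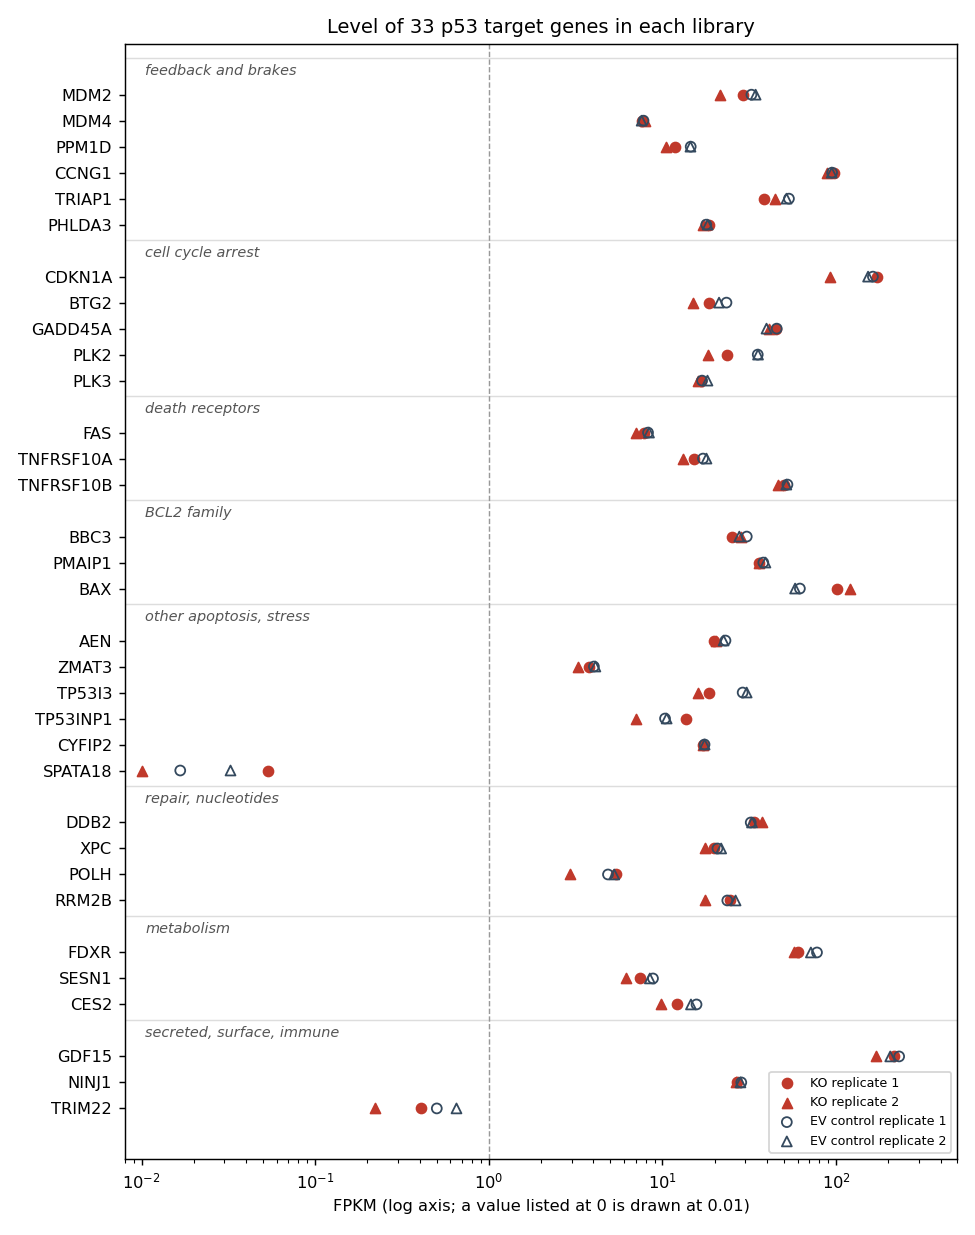
FPKM of the 33 p53 target genes in each library on a log axis, grouped by role, with KO libraries as filled and EV control libraries as open symbols and a dashed line at 1 FPKM; a value listed at 0 is drawn at 0.01. The list runs from SPATA18, at or below 0.0531 FPKM, to GDF15 at 169 to 231 FPKM, and BAX is the gene with KO symbols far to the right of the EV control symbols.

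Most of the list lay somewhat lower in the KO libraries and 1 gene, BAX, lay well higher. The mean difference, KO minus EV control on the log2(FPKM + 1) scale, was below 0 for 27 of the 31 genes, against 49.5% of all 12701 tested genes. Both KO libraries lay below both EV control libraries for 19 genes (61.3%), against 25.6% of all tested genes. Both lay above for 2 genes, BAX and DDB2, against 26.5% of all tested genes. The median difference of the list was -0.18, and that of all tested genes was 0.00307.

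No single gene of the list passed the test across all genes. With limma-trend and Benjamini-Hochberg adjustment over 12701 genes, no gene was called (0 of 31 higher, 0 of 31 lower, adjusted p below 0.05), and the smallest adjusted p was 0.134, for BAX. By that rule 0.0551% of all tested genes were called higher and the same share, 0.0551%, were lower. With an unadjusted p under 0.05, 9 of 31 genes were lower, against 7.22% of all tested genes, and 1 was higher, against 9.23%. The 9 were TP53I3, PLK2, FDXR, PPM1D, CES2, TRIAP1, BTG2, TNFRSF10A and SESN1, and the 1 was BAX. The count of 9 depended on the libraries: it was 2 without EV control replicate 1 and 3 without EV control replicate 2, where 1.56% and 1.22% of all tested genes were lower at that level. It was 18 without KO replicate 1 and 11 without KO replicate 2, where 16.8% and 17.4% were (a single KO library is then taken to vary as the EV controls do). Counts at an adjusted p under 0.05 with 1 library left out are not given, since 1 group then rests on a single library. The median difference was -0.25 without KO replicate 1 and -0.08 without KO replicate 2.

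**Figure D2:**
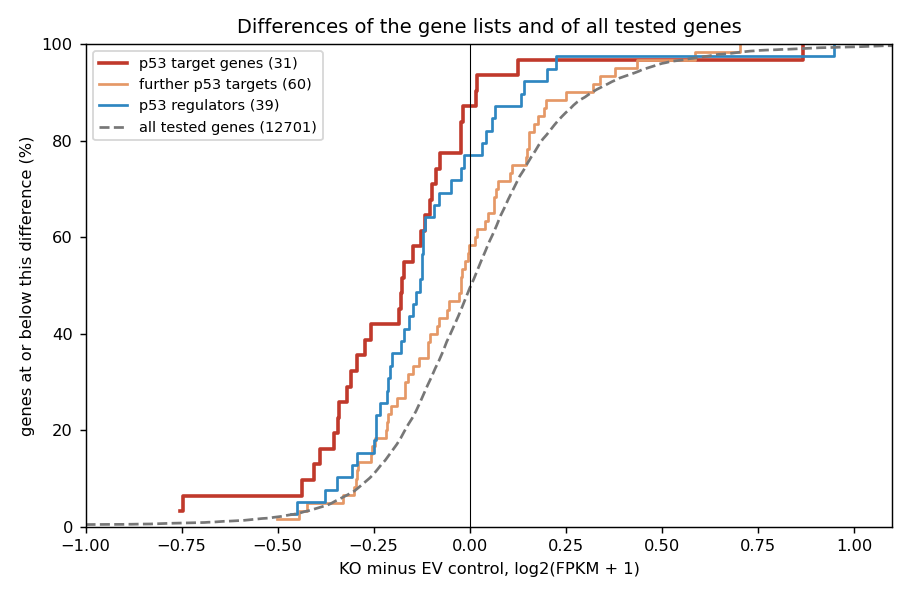
Share of genes (vertical axis, %) at or below a given KO minus EV control difference on the log2(FPKM + 1) scale, for the 31 tested p53 target genes, 60 further p53 targets, 39 p53 regulators and all 12701 tested genes. The curve of the p53 target genes lies left of that of all genes over most of its length, with medians of -0.18 and 0.00307, and ends in a single step at 0.87, which is BAX.

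Of 6 genes that feed back on p53 or temper its effects, 3 had both KO libraries below both EV control libraries, as 25.6% of all tested genes did. MDM2, the ligase that marks p53 for degradation, stood at 29.1 and 21.5 FPKM in KO, against 32.5 and 34.4 FPKM in EV control. Both KO libraries were lower, KO replicate 2 by more, and the difference was -0.41 (SE 0.16; limma-trend, adjusted p = 0.304, unadjusted p = 0.0506). PPM1D, the WIP1 phosphatase that removes activating phosphates from p53 and its kinases, stood at 11.8 and 10.5 FPKM in KO, against 14.5 and 14.5 FPKM in EV control. Its KO mean was 76.8% of the EV control mean (difference -0.35, SE 0.092; limma-trend, adjusted p = 0.219). TRIAP1, a small protein that limits apoptosis and carries lipid inside mitochondria, stood at 38.4 and 44.5 FPKM in KO, against 53.5 and 51.8 FPKM in EV control. The groups did not overlap, and TRIAP1 was the 1 gene of the 9 for which KO replicate 1 was the lower KO library (difference -0.34, SE 0.10; limma-trend, adjusted p = 0.242). MDM4, the inactive partner of MDM2, had 7.63 and 7.95 FPKM in KO and 7.78 and 7.59 FPKM in EV control, with a 95% interval of the difference from -0.20 to 0.24. CCNG1, the cyclin G1 gene, had 97.8 and 88.7 FPKM in KO and 94.8 and 94.3 FPKM in EV control, with an interval from -0.25 to 0.20. PHLDA3, an inhibitor of AKT, had 18.6 and 17.1 FPKM in KO and 17.9 and 18.2 FPKM in EV control, with an interval from -0.23 to 0.20. All 3 had overlapping groups, and the intervals leave room for a difference as large as the list's median.

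Among genes of cell cycle arrest, PLK2 differed most. This kinase gene of the polo family stood at 23.5 and 18.2 FPKM in KO, against 35.4 and 35.5 FPKM in EV control. Its KO mean was 58.9% of the EV control mean, both KO libraries lay far below the controls, and the difference was -0.75 (SE 0.13; limma-trend, adjusted p = 0.183). BTG2, an antiproliferative gene whose product promotes the removal of poly(A) tails, stood at 18.6 and 15.1 FPKM in KO, against 23.4 and 21.2 FPKM in EV control. The groups did not overlap (difference -0.39, SE 0.13; limma-trend, adjusted p = 0.264). PLK3, the paralog of PLK2, had 16.6 and 15.99 FPKM in KO and 16.9 and 18.2 FPKM in EV control, a difference of -0.10 with a 95% interval from -0.31 to 0.12. GADD45A, a stress gene tied to the G2 checkpoint, had 45.2 and 41.1 FPKM in KO and 45.5 and 39.7 FPKM in EV control, and the groups overlapped.

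CDKN1A, which encodes the cyclin-dependent kinase inhibitor p21 and is the best-known p53 target, had its KO libraries on opposite sides of the controls. Its level was 172 FPKM in KO replicate 1 but only 92.8 FPKM in KO replicate 2, against 163 and 153 FPKM in EV control. KO replicate 1 thus lay above both controls and KO replicate 2 far below both, at 54.04% of KO replicate 1. The group difference of -0.32 had an SE of 0.30 (limma-trend, adjusted p = 0.614), and it was -0.76 without KO replicate 1 (limma-trend, adjusted p = 0.00689) and 0.12 without KO replicate 2 (adjusted p = 0.242). Over all alternatives the adjusted p of CDKN1A ranged from 0.00689 to 0.9996.

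**Figure D3:**
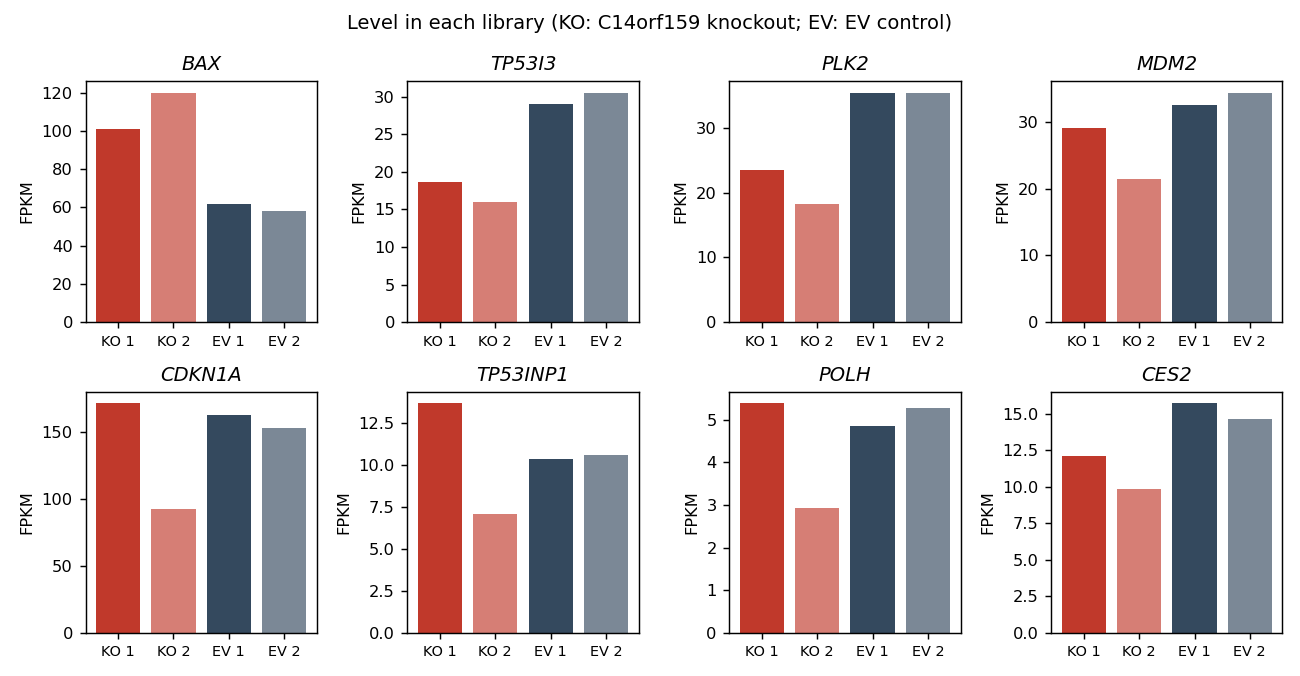
FPKM of 8 genes in each library, as bars from 0, with the 2 KO libraries (red) left of the 2 EV control libraries (blue-grey). BAX is higher in both KO libraries, TP53I3, PLK2, MDM2 and CES2 are lower in both, and CDKN1A, TP53INP1 and POLH are lower in KO replicate 2 and not in KO replicate 1.

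Death receptors, which carry apoptotic signals from outside the cell, were slightly lower in both KO libraries. TNFRSF10A, the TRAIL receptor DR4, stood at 15.1 and 13.1 FPKM in KO, against 17.1 and 17.9 FPKM in EV control (difference -0.29, SE 0.099; limma-trend, adjusted p = 0.275). TNFRSF10B, the TRAIL receptor DR5, had 49.9 and 46.03 FPKM in KO and 52.4 and 51.7 FPKM in EV control. FAS had 7.83 and 6.99 FPKM in KO and 8.26 and 8.37 FPKM in EV control. None of the 3 receptors had overlapping groups. Of all tested genes, 25.6% had both KO libraries below both EV control libraries. The differences of TNFRSF10B (-0.12) and FAS (-0.15) were small beside their 95% intervals, which reached from -0.33 to 0.09 and from -0.39 to 0.10.

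BAX stood apart from the list and from the other BCL2-family targets. BAX, the pore-forming protein that permeabilises the outer mitochondrial membrane, stood at 100.8 and 120.2 FPKM in KO, against 61.9 and 58.1 FPKM in EV control. Both KO libraries lay far above both controls, and the KO mean was 1.84 times the EV control mean (difference 0.87, SE 0.11, 95% interval 0.57 to 1.16; limma-trend, adjusted p = 0.134). By unadjusted p BAX ranked 67 among the 12701 tested genes. Its adjusted p ranged from 0.0881 to 0.279 over the 8 other ways of filtering, scaling and modelling all 4 libraries. It was 0.00383 without KO replicate 1 and 0.00677 without KO replicate 2, and 0.665 and 0.986 without EV control replicates 1 and 2. PMAIP1, the NOXA gene, had 35.8 and 36.1 FPKM in KO and 38.1 and 39.2 FPKM in EV control. BBC3, the PUMA gene, had 25.03 and 28.2 FPKM in KO and 30.6 and 27.7 FPKM in EV control. Both encode BH3-only proteins that act upstream of BAX, and neither was higher in the KO mean (differences -0.10 and -0.13).

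TP53I3 had the lowest difference of the list. TP53I3, also known as PIG3, encodes a quinone oxidoreductase linked to oxidative stress in p53-driven apoptosis. It stood at 18.6 and 15.9 FPKM in KO, against 28.97 and 30.6 FPKM in EV control. Its KO mean was 58.1% of the EV control mean, and the groups lay far apart (difference -0.75, SE 0.10; limma-trend, adjusted p = 0.134, rank 80 by unadjusted p). AEN, an apoptosis-enhancing nuclease gene, had 19.8 and 20.3 FPKM in KO and 23.1 and 22.5 FPKM in EV control. ZMAT3, an RNA-binding zinc finger gene, had 3.76 and 3.26 FPKM in KO and 4.03 and 4.11 FPKM in EV control. Both were lower in both KO libraries, with 95% intervals of the difference that included 0. CYFIP2, a subunit gene of the WAVE actin-regulating complex, lay between 17.2 and 17.5 FPKM in all 4 libraries, and its 95% interval was -0.22 to 0.17.

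TP53INP1, which links p53 to autophagy and to phosphorylation of p53 itself, split the KO libraries as CDKN1A did. It stood at 13.7 FPKM in KO replicate 1 and 7.04 FPKM in KO replicate 2, against 10.3 and 10.6 FPKM in EV control. The KO libraries lay on either side of the controls, so that the group difference was -0.08 with a 95% interval from -0.83 to 0.68.

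DNA repair and nucleotide supply genes gave small or split differences. DDB2, a sensor of ultraviolet damage and the gene with the exact pair of half-sites printed above, had 33.7 and 37.5 FPKM in KO and 32.2 and 32.8 FPKM in EV control. It was thus higher in both KO libraries, with a difference of 0.12 and a 95% interval from -0.10 to 0.35. XPC, its partner in nucleotide excision repair, had 19.9 and 17.5 FPKM in KO and 20.7 and 21.8 FPKM in EV control. POLH, the translesion DNA polymerase eta gene, had 5.39 FPKM in KO replicate 1 and 2.94 FPKM in KO replicate 2, against 4.86 and 5.28 FPKM in EV control. RRM2B, a ribonucleotide reductase subunit gene, had 24.5 FPKM in KO replicate 1 and 17.5 FPKM in KO replicate 2, against 23.6 and 26.4 FPKM in EV control. For POLH and RRM2B, KO replicate 2 lay below both controls and KO replicate 1 did not.

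All 3 metabolic genes were lower in both KO libraries. FDXR, the ferredoxin reductase of the mitochondrial matrix, stood at 60.6 and 56.9 FPKM in KO, against 77.6 and 71.6 FPKM in EV control (difference -0.34, SE 0.087; limma-trend, adjusted p = 0.214). CES2, an intestinal carboxylesterase that activates the drug irinotecan, stood at 12.1 and 9.86 FPKM in KO, against 15.7 and 14.6 FPKM in EV control (difference -0.44, SE 0.12; limma-trend, adjusted p = 0.230). SESN1, a sestrin that restrains mTORC1, stood at 7.46 and 6.16 FPKM in KO, against 8.82 and 8.46 FPKM in EV control (difference -0.31, SE 0.11; limma-trend, adjusted p = 0.296). The groups overlapped for none of them. Both KO libraries lay below both EV control libraries for 25.6% of all tested genes and for 19 of the 31 genes of the list. Of the secreted and surface genes, GDF15, a stress cytokine, had 216 and 169 FPKM in KO and 231 and 205 FPKM in EV control, with overlapping groups. NINJ1, a membrane protein that mediates rupture of dying cells, had 26.8 and 26.4 FPKM in KO and 28.4 and 28.1 FPKM in EV control.

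Each KO library was then set alone against the EV control mean, counting genes that lay outside the EV control range and at least 0.5 from its mean on the log2(FPKM + 1) scale. These comparisons share their controls and have no test. In KO replicate 1, 2 genes were lower by that rule (PLK2 and TP53I3), against 3.04% of all tested genes, and 1 was higher (BAX), against 4.89%. In KO replicate 2, 8 were lower (MDM2, CDKN1A, BTG2, PLK2, TP53I3, TP53INP1, POLH and CES2), against 3.61% of all tested genes, and BAX was again higher, against 6.11%. KO replicate 1 had a list median of -0.08 and KO replicate 2 one of -0.25, where the medians of all tested genes were -0.0043 and 0.014.

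The KO libraries were also compared with each other. KO replicate 2 lay below KO replicate 1 for 23 of the 31 genes, against 47.8% of all tested genes. It was lower by at least 0.5 for 3 genes, CDKN1A (-0.88), TP53INP1 (-0.87) and POLH (-0.70), against 4.19% of all tested genes. It was higher by that much for 0 genes, against 5.22% of all tested genes. The library with the lower level of most p53 target genes was thus the KO library that kept more C14orf159 transcript, 10.8 FPKM against 2.52 FPKM. With 1 library of each kind, this order has no replicate check, and transcript level does not show how much protein remained.

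**Figure D4:**
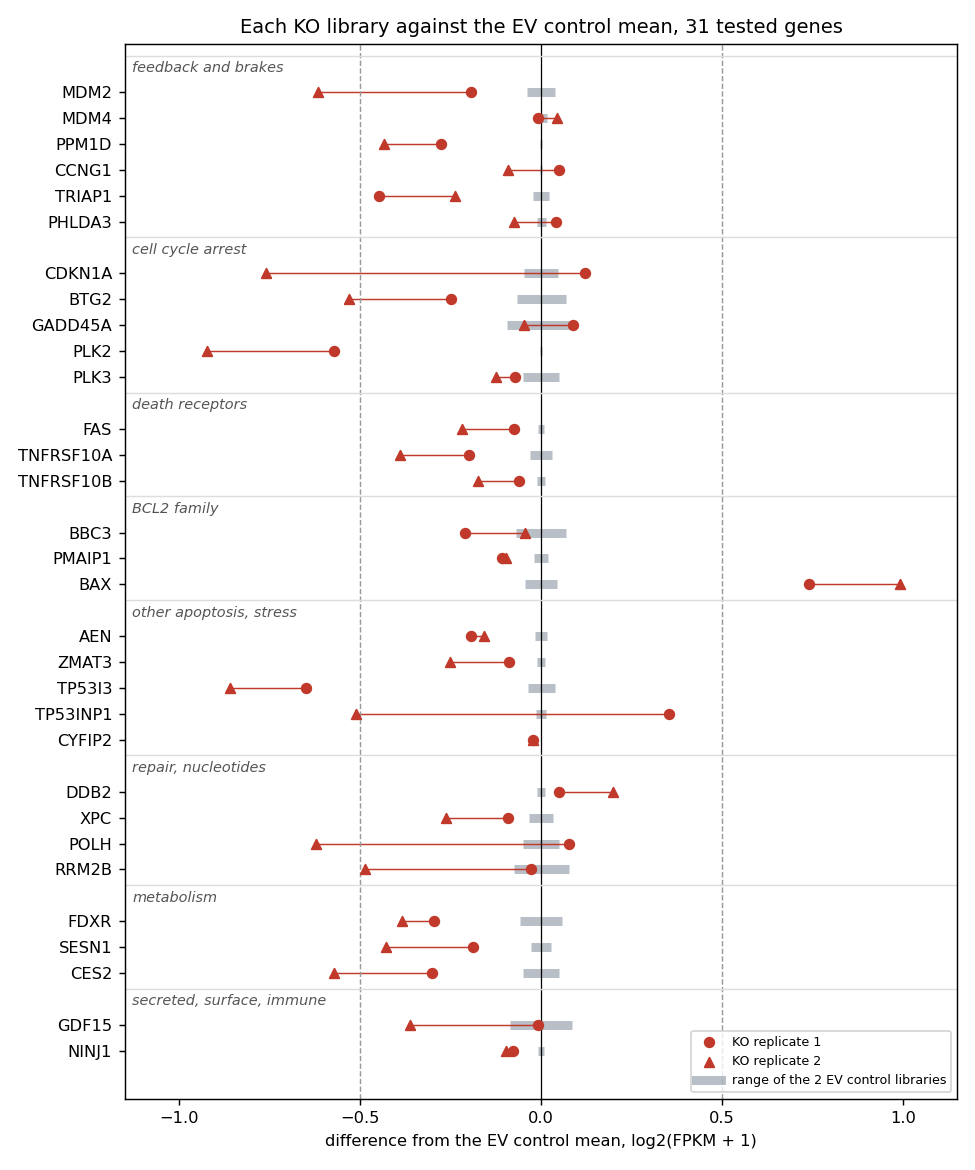
Difference of KO replicate 1 (circles) and KO replicate 2 (triangles) from the EV control mean on the log2(FPKM + 1) scale for 31 tested genes, with the range of the 2 EV control libraries as grey bars and dashed lines at 0.5 on either side. Most symbols lie left of the grey bars, the triangle lies left of the circle for 23 of 31 genes, and BAX lies beyond 0.5 on the right in both KO libraries.

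A list of 40 regulators of p53 was examined beside its targets. Of the 39 regulators tested, 0 passed over all genes, while limma-trend gave 6 with lower and 2 with higher levels at an unadjusted p below 0.05, against 7.22% and 9.23% of all tested genes. Among the lower ones were PRKDC, the DNA-dependent protein kinase (37.4 and 52.02 FPKM as KO and EV control means), the paralogous acetyltransferase genes CREBBP (6.13 and 8.24) and EP300 (6.75 and 8.82), the methyltransferase gene SETD8 (21.9 and 26.2), and ATR, a DNA damage kinase (5.67 and 7.23). The 2 higher ones were RFWD2, the COP1 ubiquitin ligase gene that helps to degrade p53 (16.7 and 14.2 FPKM), and YPEL3. YPEL3, placed in this list although it is known as a p53 target that acts in growth arrest, stood at 10.9 and 8.69 FPKM in KO, against 4.23 and 4.92 FPKM in EV control (difference 0.95, SE 0.14; limma-trend, adjusted p = 0.1495). ATR and RFWD2 were named after their values were seen. Both KO libraries lay below both EV control libraries for 20 of the 39 regulators, against 25.6% of all tested genes, and the median difference was -0.13, against 0.00307. Without EV control replicate 1 or 2 the count of lower regulators was 1, where 1.56% and 1.22% of all tested genes were lower. It was 13 without KO replicate 1 and 12 without KO replicate 2, where 16.8% and 17.4% of all tested genes were lower, so that the count moved with that over all genes.

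A second list held 66 further p53 targets. Of these, 60 were tested and 0 passed over all genes (limma-trend, smallest adjusted p = 0.183). At an unadjusted p under 0.05, 1 was lower, against 7.22% of all tested genes, and 5 were higher, against 9.23%, so that neither count exceeded the share over all genes. YPEL3, also a p53 target and higher at that level, stood in the regulator list and is not counted here. The lower one was THBS1, the thrombospondin 1 gene (1.01 and 1.85 FPKM as KO and EV control means). Among the higher ones were TNFAIP8 (11.8 and 8.45), the placental growth factor gene PGF (4.46 and 2.64), the small GTPase gene RHOC (162 and 129.9), and SERTAD1 (34.3 and 26.1). Both KO libraries lay below both EV control libraries for 19 of 60, against 25.6% of all tested genes, and above for 10 of 60, against 26.5%, and the median difference was -0.02. The median of the 31 genes was -0.18, and the difference between these lists was not tested. Without KO replicate 1, 8 further targets were higher and 15 lower at that level, where the shares over all genes were 21.8% higher and 16.8% lower. Without KO replicate 2, 17 were higher and 5 lower, where 15.7% were higher and 17.4% lower. Without EV control replicate 1 or 2, 2 were higher and 0 lower in limma-trend, where over all genes 3.61% and 2.92% lay higher and 1.56% and 1.22% lower.

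Cell cycle genes known to be repressed by p53 through p21 and the DREAM complex were read beside the list. Of 20 such genes, 6 had lower and 0 higher levels at an unadjusted p below 0.05, and 0 passed over all genes (limma-trend). Of all tested genes 7.22% were lower and 9.23% higher at that level. The 6 were PLK1 (45.5 and 57.0 FPKM as KO and EV control means), FOXM1 (27.1 and 32.5), CCNA2 (35.6 and 43.1), MKI67 (40.8 and 49.9), TOP2A (36.03 and 43.9) and CDC20 (126.5 and 152). The median difference was -0.13, against the EV control mean -0.21 in the first and -0.12 in the second KO library. The medians of the cell cycle genes and of the p53 target genes both lay below 0. KO replicate 1 had the lower median for the cell cycle genes, and KO replicate 2 for the p53 target genes (-0.25 against -0.08). A link between the lists was not tested. Without EV control replicate 1 or 2 no cell cycle gene was lower at that level in limma-trend (0 of 20 in each), where 1.56% and 1.22% of all tested genes were lower. The median difference of the 20 genes was -0.12 without KO replicate 1 and -0.21 without KO replicate 2.

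Last, each gene was set beside its neighbours on the chromosome. None of the 31 tested genes is on chromosome 14, which carries C14orf159. The 20 nearest tested genes of BAX on chromosome 19 had a median difference of -0.00024 (range -0.30 to 0.98), and 10 of the 20 were above 0. The neighbours of TP53I3 on chromosome 2 had a median of 0.06, those of PLK2 on chromosome 5 had -0.05, and those of CES2 on chromosome 16 had 0.12. Over all 31 genes the neighbours' medians lay between -0.09 and 0.16. BAX, TP53I3 and PLK2 had the largest differences of the list, so their distance from a median of 20 genes follows from how they were picked. The highest neighbour of BAX lay above BAX itself (0.98 against 0.87). The lowest neighbours of TP53I3 and PLK2 stood at -0.44 and -0.52.

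**Figure D5:**
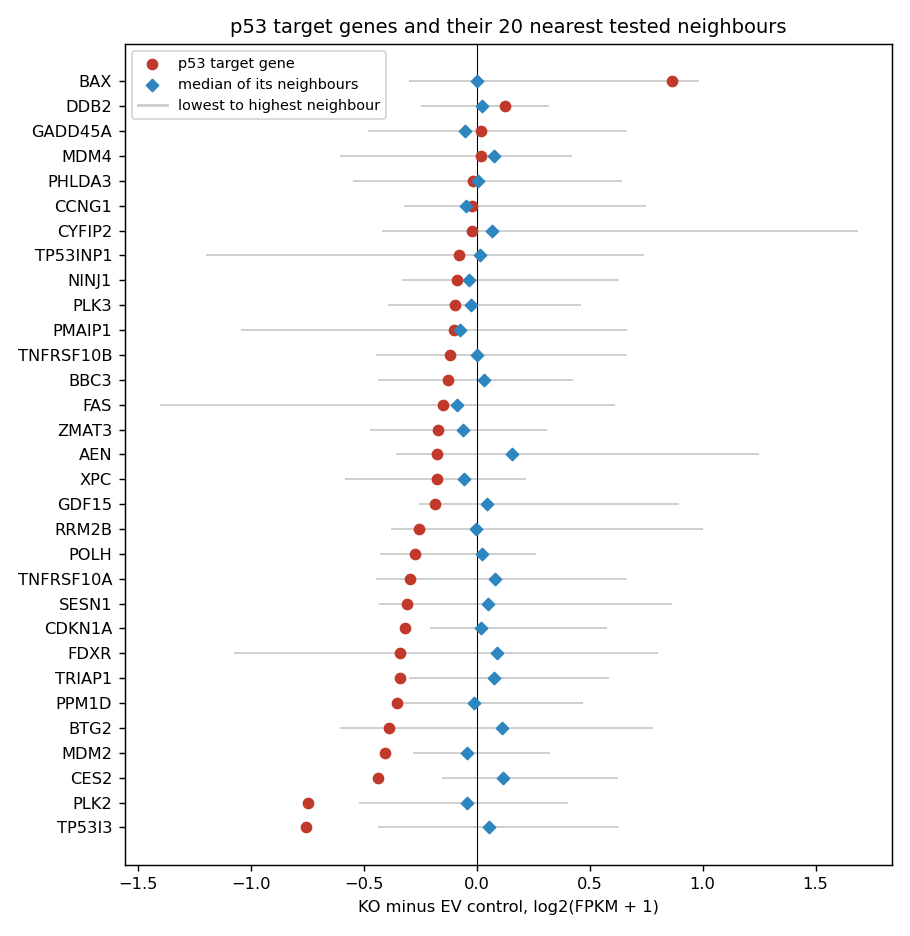
KO minus EV control difference on the log2(FPKM + 1) scale of each tested p53 target gene (circles) and the median of its 20 nearest tested neighbours (diamonds), with a grey line from the lowest to the highest neighbour. The diamonds stay between -0.09 and 0.16 while the genes themselves run from -0.75 (TP53I3) to 0.87 (BAX).

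Some of these transcripts share exon bases with another gene, and the sources used here do not say whether counting used strand. In GENCODE release 29, among genes listed in the files, TP53I3 shares 80 exon bases with FAM228B on the opposite strand, XPC shares 318 with LSM3, TNFRSF10B shares 67 with RHOBTB2 and PLK3 shares 78 with TCTEX1D4. FAM228B had 3.25 and 2.24 FPKM in KO and 2.91 and 3.03 FPKM in EV control, far below TP53I3. LSM3 had 124 and 133.5 FPKM in KO and 126.6 and 128 FPKM in EV control, well above XPC.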

How the data were processed

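Libraries of HCT116 RNA came from a stranded mRNA kit (TruSeq), per the labels' protocols. Each library's deposited table gives 1 FPKM value for every gene symbol, per the file headers. Per the submitters' processing notes, TopHat2 2.0.13, Bowtie2 2.2.3, SAMtools 0.1.19, Cuffnorm 2.2.1 and hg19 were used. The sources used here name neither the annotation nor how libraries were scaled. Values were used as log2(FPKM + 1), a scale that understates the change of low genes. Genes with at least 1 FPKM in at least 2 of 4 libraries (12701) were fitted with limma 3.58.1 in R 4.3.3 (lmFit, eBayes with trend, group as the sole term, two-sided, Benjamini-Hochberg over all 12701). The fit was tested on simulated data with equal noise in all 4 libraries. That test does not cover the wider spread between the KO libraries. Intervals are 95% and use 2.82 prior degrees of freedom besides the residual ones.

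Depth was estimated from the value of 1 fragment in 2008 single-transcript genes (GENCODE 29) and is rough, since a preset window of products (0.06 to 0.1) bounds it. Neighbours are the 10 nearest tested genes on either side by RefSeq gene order, with small RNA genes left out. The p53 target genes and all lists were chosen with earlier results of these data known. Values per library are given for genes with an unadjusted p under 0.05, non-overlapping groups and a difference of at least 0.3, or KO libraries at least 0.5 apart, and for MDM2, CDKN1A and C14orf159. Of each further list, up to 6 genes with the smallest p are named, and a few results that these rules cover are not reported here. The remaining p53 target genes are given so that each of the 33 is accounted for.

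Alternatives were quantile normalization, median-of-ratios scaling, a pseudocount of 0.1, no filter or one at 5 FPKM, limma with no trend, no small RNA genes, a replicate block and leaving out each library.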

Additional observations from a re-analysis of the deposited data

How the results depend on the processing

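With 2 libraries per group, the libraries entering the fit mattered more than the settings. Leaving out each library in turn, limma-trend gave 0 to 2 p53 target genes higher and 0 to 14 lower at an adjusted p under 0.05, against 0 and 0 with all 4 libraries. The 14 came without KO replicate 1, where 6.62% of all tested genes were lower by that rule. At an unadjusted p under 0.05 the counts ranged from 1 to 2 higher and from 2 to 18 lower. The KO libraries left in a fit all lay above its EV controls for 2 to 7 genes and below them for 20 to 26. The 7 came without KO replicate 2 and the 26 without KO replicate 1, so each rests on 1 KO library. Such a separation is easier to meet with a library left out than with all 4. No share over all genes is given for these counts, so they are not read as a stronger pattern. The differences that changed sign among these fits ranged from -0.00901 to 0.0436 for MDM4, -0.0918 to 0.0481 for CCNG1, -0.0737 to 0.0403 for PHLDA3, -0.760 to 0.121 for CDKN1A, -0.0753 to 0.115 for GADD45A, -0.511 to 0.355 for TP53INP1 and -0.622 to 0.0759 for POLH. No fit without a KO library tests the spread between KO libraries.

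Under the 8 settings that keep all 4 libraries, no p53 target gene changed direction or passed the adjusted threshold. At an unadjusted p under 0.05, 8 to 10 were lower, where 4.59% to 8.64% of all tested genes were. The list's median difference ranged from -0.19 to -0.18, and that of all tested genes from -0.012 to 0.0031. With a replicate block, 8 were lower and 1 higher at that level, of the p53 regulators 3 were lower and 1 higher, and of the cell cycle genes 1 was lower against 6, where 4.59% of all tested genes were lower and 7.55% higher, against 7.22% and 9.23%. Same-numbered libraries did not deviate together (correlation of deviations -0.0046), so the numbers do not pair them. For the further p53 targets, the count of lower genes at that level was 5 of 65 without a filter and 3 of 60 without the trend. It was 2 of 60 with quantile normalization and 0 of 45 with a filter at 5 FPKM, against 1 of 60. For the p53 regulators it was 4 of 40 without a filter and 9 of 39 with quantile normalization, against 6 of 39. Of all tested genes, 6.40% were lower without a filter and 6.80% without the trend. With quantile normalization 8.64% were lower, and with a filter at 5 FPKM 8.04%. The cause of these moves was not tested.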
